A study of Mus musculus with 4 samples.

Results

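The alpha-defensin gene cluster of the mouse was described gene by gene in single cells of small-intestinal crypts. The cluster was taken as all genes whose symbol starts with Defa, together with AY761184, Gm14851, Gm15292, Gm7861 and Gm7849. That rule found 27 of the 32285 genes counted in the libraries. Gm15293, which RefSeq lists under the further name Defa41, lies outside the rule and was not counted as a member. The crypts are pits of the intestinal lining with stem cells and Paneth cells at their base, and the series set mice after sleep deprivation against mice before it. There were 4 libraries, 2D-1 and 2D-2 in the 2D group and 0D-1 and 0D-2 in the 0D group, and the labels leave the letter D unexplained. They give no strain, age or genotype, and do not say that the libraries of a group came from separate animals or whether animals were pooled. A p-value here therefore reflects no more than the spread among 4 libraries, part or all of which may be technical.

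Alpha-defensins of the mouse gut, also called cryptdins, are small cationic peptides that kill bacteria by disturbing their membranes. Paneth cells at the crypt base make them as precursors, store them in granules beside lysozyme and release them into the crypt, and in mice the protease Mmp7 cuts the precursors to the active peptides. Paneth cells mature under Wnt signalling, and TCF factors, which act with beta-catenin at the end of that pathway, bind promoters of cryptdin genes.

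All 27 members lie on chromosome 8 between 21025545 and 21735471 in the mouse build GRCm38, by the GENCODE M21 annotation. Each is annotated as protein-coding with 2 exons. Of them, 22 lie on the plus strand and 5 on the minus strand. The minus-strand genes Gm14851, Defa29, Gm7849, Gm7861 and AY761184 each have 11 cysteine codons in a coding sequence of 351 bases. These are genes of the cryptdin-related sequence kind, whose precursors resemble those of cryptdins while the mature peptide has another spacing of cysteines. Most plus-strand members, Defa24 among them, have a coding sequence of 282 bases with 6 cysteine codons, the number that gives an alpha-defensin its disulfide bonds.

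The last 35 codons are shown for the 6 most abundant members of Paneth cells, since it shows how closely the leading members resemble each other. It holds all 6 cysteine codons of the classical members shown and 5 of the 11 of AY761184 and Gm14851. They were read from the GENCODE transcripts, run 5′ to 3′ and end with the stop codon, and capitals mark cysteine codons.
Defa24: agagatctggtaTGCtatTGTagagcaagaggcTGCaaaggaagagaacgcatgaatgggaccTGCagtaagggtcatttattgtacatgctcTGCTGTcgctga
Defa30: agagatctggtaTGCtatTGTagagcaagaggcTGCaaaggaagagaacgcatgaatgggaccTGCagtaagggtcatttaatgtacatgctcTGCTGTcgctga
Defa21: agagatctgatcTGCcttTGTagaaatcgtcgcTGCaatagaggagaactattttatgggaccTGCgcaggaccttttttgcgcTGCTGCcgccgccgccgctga
Defa22: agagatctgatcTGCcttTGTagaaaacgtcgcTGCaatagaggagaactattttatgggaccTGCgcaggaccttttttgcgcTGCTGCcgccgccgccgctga
AY761184: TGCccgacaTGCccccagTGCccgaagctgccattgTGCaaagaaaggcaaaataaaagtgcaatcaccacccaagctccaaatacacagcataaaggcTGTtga
Gm14851: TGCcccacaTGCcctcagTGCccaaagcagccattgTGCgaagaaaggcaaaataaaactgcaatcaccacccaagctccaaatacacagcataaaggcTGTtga
Defa24 and Defa30 differed here at 1 of 105 bases, T82A, counted from the first base shown with the base of Defa24 first. Defa21 and Defa22 also differed at 1 base, T27A in the same notation, while Defa24 and Defa21 differed at 40 bases. AY761184 and Gm14851 differed at 6 bases.

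Over the whole coding sequence the identity was 98.58% for Defa24 and Defa30, 80.77% for Defa24 and Defa21, and 63.13% for AY761184 and Defa24. Such likeness limits which counts can be assigned. A window of 91 bases from the last 300 bases of each transcript was called unique when no other GENCODE transcript of another gene held it. For Defa24, AY761184 and Defa29 100% of windows were unique, and for Defa30 99.05% were. For Defa21 and Defa22 61.43% were unique, for Defa3 and Defa17 13.33%, and for Gm7861 8.57%. For Defa5, Defa20 and Defa32 0.48% were unique. None was unique for Defa23, Defa31, Defa2, Defa33, Defa34, Defa36, Defa37 and Gm7849. Counts of these near-identical genes are uncertain one by one, and the sources used here do not say how reads matching several genes were treated.

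The RefSeq table (build GRCm38.p6) held a promoter for 12 of the 27 members, from 250 bases before the start of transcription to 50 after it. The promoters of Defa21, Defa30 and Defa36 are shown because Defa21 and Defa30 belong to sets of members whose shares differed between Paneth cells, and because Defa36 had the smallest p between the groups in those cells. They run 5′ to 3′ on the plus strand, and capitals mark the TCF core ATCAAAG, the reverse complement of CTTTGAT.
Defa21 (chr8:21025295-21025594): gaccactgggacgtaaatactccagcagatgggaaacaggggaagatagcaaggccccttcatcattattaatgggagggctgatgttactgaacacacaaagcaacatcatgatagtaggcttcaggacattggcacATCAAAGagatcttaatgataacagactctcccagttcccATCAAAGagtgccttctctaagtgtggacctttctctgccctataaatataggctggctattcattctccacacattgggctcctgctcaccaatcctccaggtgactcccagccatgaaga
Defa30 (chr8:21134400-21134699): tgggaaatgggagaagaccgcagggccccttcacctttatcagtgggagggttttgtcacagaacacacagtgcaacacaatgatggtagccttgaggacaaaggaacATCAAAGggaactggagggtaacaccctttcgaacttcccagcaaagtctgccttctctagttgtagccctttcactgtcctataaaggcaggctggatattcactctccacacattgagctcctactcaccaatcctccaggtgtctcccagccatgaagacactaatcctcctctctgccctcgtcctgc
Defa36 (chr8:21427178-21427477): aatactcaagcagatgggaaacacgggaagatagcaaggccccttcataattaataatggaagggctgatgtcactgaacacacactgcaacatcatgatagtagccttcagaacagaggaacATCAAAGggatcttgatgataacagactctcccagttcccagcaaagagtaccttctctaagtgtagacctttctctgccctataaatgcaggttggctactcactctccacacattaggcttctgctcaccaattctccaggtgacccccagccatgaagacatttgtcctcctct
The TCF core, searched on both strands, stood in 12 of the 12 promoters, against 3.729% of the 32851 promoters of the table. It occurred 2 times in 8 of them, Defa21 included, and 1 time in those of Defa30, Defa36, Defa37 and Defa28. TATAAA stood in 11 of the 12, all but that of Defa28, against 13.616% of all promoters. CCAAT, also searched on both strands, stood in 12 of the 12, against 37.408%. The promoters of Defa21 and Defa22 were identical over 300 bases, as were those of Defa2 and Defa20, of Defa23 and Defa31, and of Defa36 and Defa37. Those of Defa35 and Defa36 differed at 6 bases. A match of letters is no measure of binding.

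A barcode counted as a cell if it had 500 genes or more and no more than 20% of its UMIs from mitochondrial genes. UMIs are molecular tags that count each captured transcript once. That left 7025 and 7988 cells in 2D-1 and 2D-2 and 7586 and 7132 cells in 0D-1 and 0D-2. These held 110587001, 93090534, 113758758 and 110817632 UMIs in the same order, and any pair of libraries shared 13 to 16 of its kept barcodes. The library 2D-1 stood apart in genes of the interferon response: Irf7, a regulator of that response, had 250.65 CPM (UMI counts scaled to a total of 1000000 per library) in 2D-1, against 41.5 in 2D-2, 33.3 in 0D-1 and 33.7 in 0D-2. Results that could rest on 2D-1 are therefore also given without it.

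Paneth cells were taken as Lyz1-high cells, in which Lyz1, the lysozyme of Paneth granules, made up at least 1% of the UMIs that were not members' own. There were 805 and 1254 such cells in 2D-1 and 2D-2, against 474 and 483 in 0D-1 and 0D-2, or 3016 of 29731 kept cells. They made up 11.5% and 15.7% of kept cells in 2D, against 6.25% and 6.77% in 0D. The mean was 13.6% ± 3.00 in 2D and 6.51% ± 0.370 in 0D (SD, n = 2 each), a ratio of 2.09. Both 2D libraries lay above both 0D libraries, and the two-sided exact permutation p was 0.333, the smallest that 2 libraries a group can give. The difference was 7.07 percentage points, and 9.19 without 2D-1. The label Paneth was set against markers by mean CPM over the libraries, counted without the members. Of the Paneth markers 10 of 10, Lyz1 being the one that the cut used, were at least 2-fold higher in Lyz1-high cells. Mptx1 was low, and in 0D-1 it had 6.68 CPM in Lyz1-high cells, against 7.70 in the others. Also above 2-fold were 2 of 10 goblet markers, Spink4 (4.44) and Ccl9 (2.91). So were 1 of 8 stem markers, Lgr5 (2.83), and 1 of 11 markers of T and other immune cells, Lyz2 (7.16). Other classes were present among the Lyz1-high cells. By clusters made without the members, 80.9% and 77.7% of Lyz1-high cells in 2D, against 88.0% and 87.0% in 0D, were Paneth-like, and 8.70% and 7.26% in 2D, against 8.23% and 10.1% in 0D, were goblet-like. Enteroendocrine-like cells were 2.98% and 2.31% of the Lyz1-high cells in 2D, against 0.633% and 0.621% in 0D.

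Alpha-defensin transcripts made up most of the captured molecules in Lyz1-high cells. The 27 members together held 63.25% and 62.1% of the UMIs of Lyz1-high cells in 2D-1 and 2D-2, against 61.3% and 61.6% in 0D-1 and 0D-2. The mean was 62.7% ± 0.796 in 2D and 61.4% ± 0.225 in 0D (SD, n = 2 each), a difference of 1.26 percentage points, and of 0.693 without 2D-1. The groups did not overlap, with an exact permutation p of 0.333, but the direction turned when each cell was thinned to 1000 UMIs so that every cell weighed the same. The thinned shares were 49.5% and 49.0% in 2D against 51.6% and 49.2% in 0D, a difference of −1.14 points. Of all kept cells' UMIs the members held 15.98% and 19.01% in 2D, against 8.90% and 8.84% in 0D. Of the members' own UMIs, 95.7% in each 2D library, against 95.95% and 95.2% in the 0D libraries, lay in Lyz1-high cells. In a sum over a library, more Paneth cells and more transcripts per cell cannot be told apart, which is why the shares within Lyz1-high cells are given.

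The share differed widely between single Lyz1-high cells. The median cell devoted 54.6% and 55.9% of its UMIs to members in 2D, against 58.4% and 55.8% in 0D. The top 5% of cells began at 79.0% and 78.7% in 2D, against 78.0% and 78.3% in 0D. The deepest cells carried the highest shares. In cells of at least 30000 UMIs the median was 73.0% and 73.3% in 2D, against 72.3% and 73.1% in 0D. In cells of 10000 to 30000 UMIs it was 46.0% and 57.5% in 2D, against 38.9% and 28.7% in 0D, and in cells of 3000 to 10000 UMIs 20.97% and 31.6% in 2D, against 39.8% and 44.2% in 0D. In cells of 500 to 3000 UMIs it was 17.2% and 15.6% in 2D, against 34.2% and 28.6% in 0D. Below 30000 UMIs the median was thus higher in each deeper bin in 2D and not in 0D. Median depth of Lyz1-high cells was 25336 and 16844 UMIs in 2D, against 30241 and 23639 in 0D.

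**Figure D1:**
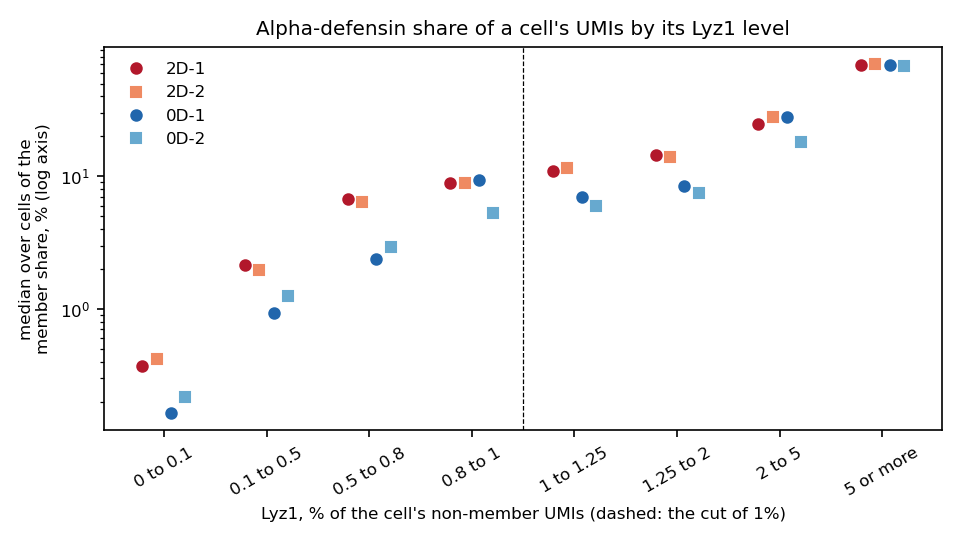
Median share of a cell's UMIs held by the 27 members (percent) by the cell's Lyz1 share (percent of UMIs that are not members' own, in bins), on a log axis, 1 point per library and bin, with the 1% cut dashed. Over all libraries the median was 0.257% in the lowest bin and 69.1% where Lyz1 was at least 5%.

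Bins of higher Lyz1 had higher shares of members over all libraries together. Over all libraries, the 205 cells just below it, at 0.8% to 1% Lyz1, had a median member share of 8.59%, and the 167 cells just above it, at 1% to 1.25%, had 10.4%. By library the medians just above the cut were 11.0% and 11.6% in 2D, against 7.04% and 6.005% in 0D, and just below it 8.93% and 8.90% in 2D, against 9.36% and 5.28% in 0D, so that 0D-1 was lower above the cut than below it. These cells near the cut were few beside the 2022 cells with at least 5% Lyz1, where the median was 69.1%.

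The levels of the members in Lyz1-high cells are given as CPM of the summed UMIs of a library's Lyz1-high cells. Each molecule is counted once at its 3′ end, so the levels were not divided by gene length. On this scale 16 members exceeded 1000 CPM on average, 3 lay between 100 and 1000, and 8 lay below 100. The 6 leading members held 89.1% and 90.04% of all member UMIs in 2D, against 90.4% and 89.5% in 0D. The 12 leading members held 98.4% and 98.7% in 2D, against 98.5% and 98.6% in 0D.

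**Figure D2:**
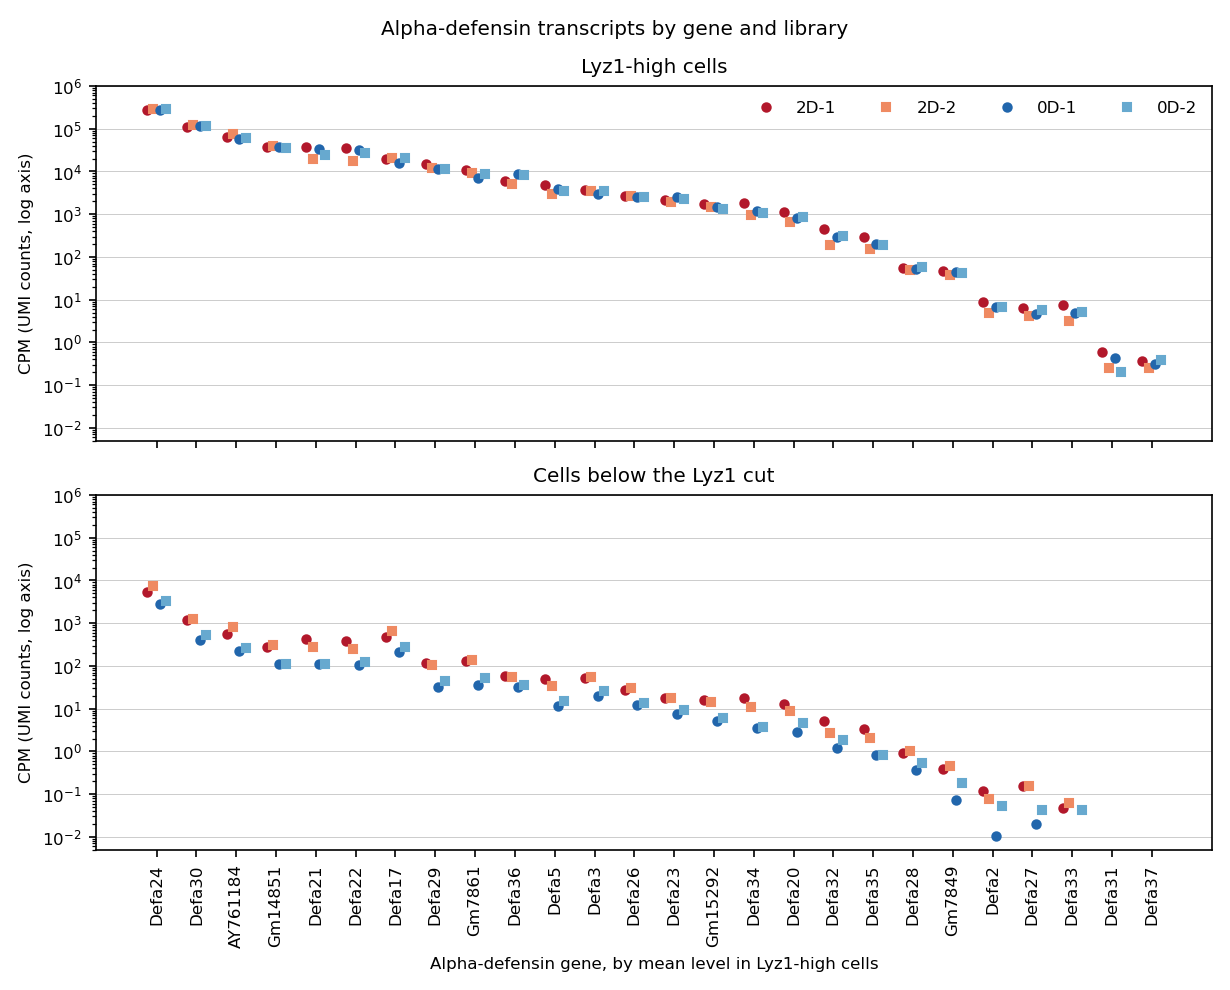
Level of each member in Lyz1-high cells (upper panel) and in cells below the Lyz1 cut (lower panel), as CPM on a log axis, 1 point per library. Values of 0 are not drawn, so Defa25 is missing. Defa24 lies at 278851 or more in each library in the upper panel, and in the lower panel each member with UMIs is higher in both 2D libraries than in both 0D libraries.

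Defa24, a precursor of the classical 6-cysteine kind, was by far the most abundant. It had 278851 and 286423 CPM in 2D, against 279728 and 283031 in 0D, or 44.1% and 46.1% of the member UMIs in 2D, against 45.7% and 46.0% in 0D. The mean was 282637 ± 5354 in 2D and 281380 ± 2336 in 0D (SD, n = 2 each), and the groups overlapped. Defa30, its near twin in sequence, had 110614 and 121412 CPM in 2D, against 113368 and 118854 in 0D. Its means of 116013 ± 7635 in 2D and 116111 ± 3879 in 0D (SD, n = 2 each) were closer to each other than the libraries of either group. Defa17 had 19053 and 21072 in 2D, against 16068 and 20204 in 0D, with overlapping groups, and Defa3, with a coding sequence identical to that of Defa17, had 3654 and 3407 in 2D, against 2948 and 3537 in 0D.

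Defa21 and Defa22 form the second classical pair. Defa21 had 36905 and 19664 CPM in 2D, against 33101 and 24644 in 0D, and Defa22 had 34537 and 17887 in 2D, against 31796 and 26618 in 0D. In both genes 2D-1 was the highest and 2D-2 the lowest of the 4 libraries, so the 0D values lay between the 2D values. The ratio of 2D-1 to 2D-2 was 1.88 for Defa21 and 1.93 for Defa22, while the ratio of 0D-1 to 0D-2 was 1.34 and 1.19. Summed over the pair, which does not depend on how reads were split between them, the level was 71441 and 37551 in 2D, against 64897 and 51262 in 0D.

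Several smaller classical members followed the same split between the 2D libraries. Defa5 had 4881 and 3043 CPM in 2D, against 3830 and 3531 in 0D. Defa34 had 1852 and 935 in 2D, against 1191 and 1058 in 0D, and Defa20 had 1147 and 659 in 2D, against 815 and 852 in 0D. Defa35 had 299.97 and 155 in 2D, against 205 and 191 in 0D. In all 4 genes 2D-1 was highest and 2D-2 lowest, with ratios of 2D-1 to 2D-2 of 1.60 for Defa5, 1.98 for Defa34, 1.74 for Defa20 and 1.94 for Defa35. Defa32 and Defa33, at 188 to 463 and 3.19 to 7.55 CPM over the libraries, had ratios of 2.46 and 2.37. Defa5, Defa34 and Defa35 share windows with one another, as do Defa20, Defa32 and Defa33, so their splits may not be separate.

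Defa36 was lower in 2D, with 5951 and 5150 CPM, against 8600 and 8232 in 0D. Its mean was 5551 ± 567 in 2D and 8416 ± 260 in 0D (SD, n = 2 each), and the groups did not overlap. It has no unique window and shares windows with Defa34, Defa35, Defa37 and Defa5. Summed over these 5 genes, Defa36 included, the level was 12985 and 9283 in 2D, against 13826 and 13013 in 0D. Here 2D-1 lay just below 0D-2. Taken singly, Defa34, Defa35, Defa37 and Defa5 each overlapped between the groups, so the sum is no separate check on Defa36. Defa23 was the other member lower in both 2D libraries, with 2097 and 1979 in 2D, against 2585 and 2318 in 0D.

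The genes of the cryptdin-related kind were led by AY761184, which had 64315 and 73668 CPM in 2D, against 57372 and 62087 in 0D. Its mean was 68992 ± 6614 in 2D and 59730 ± 3334 in 0D (SD, n = 2 each), and both 2D libraries lay above both 0D libraries. Gm14851 had 38084 and 40304 in 2D, against 38297 and 36088 in 0D, with overlapping groups. Defa29, also known as CRS1C, had 14698 and 11783 in 2D, against 11362 and 11643 in 0D. Gm7861 had 10591 and 9196 in 2D, against 7031 and 8730 in 0D, and Gm7849, with the same coding sequence, only 47.8 and 38.4 in 2D, against 43.5 and 41.8 in 0D. Both Defa29 and Gm7861 were higher in both 2D libraries. So were 2 plus-strand members, Defa26, with 2643 and 2731 in 2D, against 2554 and 2520 in 0D, and Gm15292, with 1739 and 1484 in 2D, against 1458 and 1342 in 0D.

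The rarest members were Defa28, at 48.1 to 59.5 CPM over the libraries, and Defa2 and Defa27, at 4.14 to 8.64. Defa31 had 16 and 7 UMIs in 2D, against 7 and 3 in 0D, and Defa37 had 10 and 7 in 2D, against 5 and 6 in 0D, although their near-identical partners Defa23 and Defa36 had 1979 to 8600 CPM. Defa25 had 0 UMIs in all 4 libraries. A count of 0 allows up to 0.112 and 0.110 CPM in 2D, against 0.189 and 0.198 in 0D (3 UMIs per library, counting error only). These low counts do not show that a near-identical gene is silent.

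No alpha-defensin passed the test between 2D and 0D in Lyz1-high cells. In edgeR's quasi-likelihood test on UMI sums per library, with Benjamini-Hochberg adjustment over all genes, 0 of the 24 members tested were called at an adjusted p of 0.05, against 10 of 11336 genes (0.0882%). At an unadjusted p under 0.05 stood 1 member, Defa36, against 746 genes (6.58%). Its log2 change of −0.60 ± 0.23 (SE) had an adjusted p of 0.732 in edgeR, and DESeq2 called it, as the 1 member, with a log2 change of −0.60 and an adjusted p of 0.00479, among 26 genes (0.229%). Of the 24 members, 5 were higher and 2 lower in both 2D libraries than in both 0D libraries, against 17.8% of all genes in each direction. The median log2 change was 0.09 over the members and −0.0004 over all genes tested.

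The errors of the single changes bound what the fits could show. In edgeR they rest in part on the spread of other genes, and are not a gene's own spread among the libraries. For Defa24, whose levels lay between 278851 and 286423 CPM, leaving out a library gave changes of −0.045 to 0.055. The log2 change was 0.01 ± 0.41 (SE) for Defa24, 0.00 ± 0.36 for Defa30 and 0.21 ± 0.33 for AY761184. It was −0.04 ± 0.35 for Defa21, −0.16 ± 0.35 for Defa22 and 0.08 ± 0.30 for Gm14851. Gm7861, at 0.32 ± 0.25, and Defa34, at 0.30 ± 0.28, had larger positive values than these and did not pass. Without 2D-2, Defa32, Defa34 and Defa35 were called higher in 2D, against 2.16% of all genes in that direction, with log2 changes of 0.59, 0.69 and 0.57 and adjusted p in edgeR of 0.0328, 0.00881 and 0.0399. Without 2D-1 none was called. With 2D-1 alone in its group the spread comes from the 0D libraries, and the lone library is assumed to vary as they do. These calls thus rest on 2D-1.

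**Figure D3:**
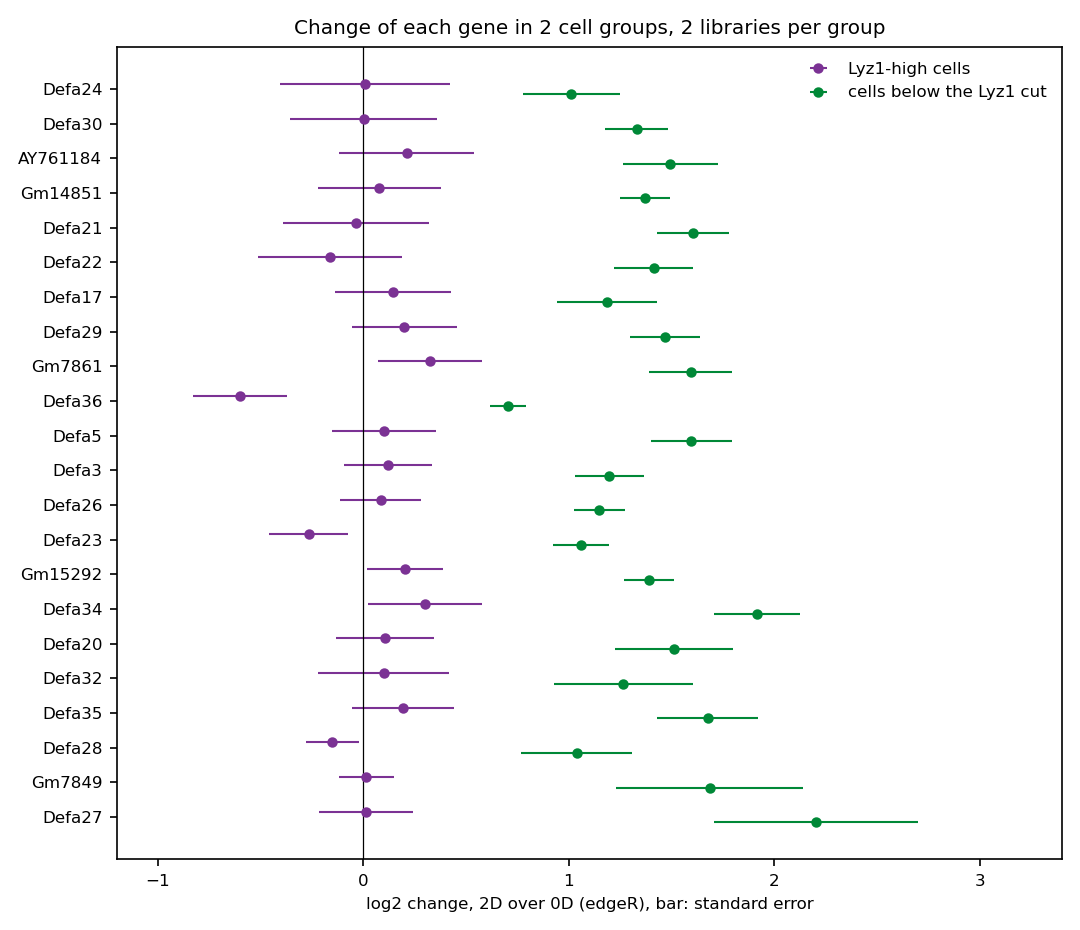
Log2 change, 2D against 0D, with its standard error, for the 22 members tested both in Lyz1-high cells and in cells below the Lyz1 cut. In Lyz1-high cells the lowest point is that of Defa36 at −0.60, and below the cut the points lie between 0.70 for Defa36 and 2.20 for Defa27.

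Other genes of the granule did not pass either. Of 29 genes listed for granule content and maturation, 26 were tested in Lyz1-high cells and 0 were called, with a median log2 change of 0.02. Those with the smallest p were Pdia4, an enzyme that forms disulfide bonds in the endoplasmic reticulum, at 0.39 ± 0.17 (SE), and Reg3b, an antibacterial lectin, at 0.91 ± 0.43. Mmp7, which cuts the precursors, had 2926 and 2592 CPM in 2D, against 2350 and 2799 in 0D. Reg3g, another antibacterial lectin, was split between the 2D libraries as Defa21 was, with 4245 and 1389 in 2D, against 1932 and 2187 in 0D. Of 31 genes for regulators and signalling 27 were tested and 0 were called. The smallest p belonged to Kit, a receptor kinase found on Paneth cells, at −0.39 ± 0.13, and Sox9, a transcription factor needed for Paneth cells, at 0.24 ± 0.14. The genes that edgeR called in Lyz1-high cells were mostly of other secretory classes: Gcg, Cck, Chga, Chgb, Neurog3 and Neurod1 of enteroendocrine cells and Trpm5 of tuft cells were higher in 2D. Summed over 14 enteroendocrine markers, Lyz1-high cells had 1514 and 1119 CPM, counted without the members, in 2D, against 734 and 620.0 in 0D. The part of these cells in the members' values was not tested.

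Single Paneth cells differed in their mix of alpha-defensins. Shares of a cell's member UMIs were followed in the 2252 Lyz1-high cells with at least 2000 member UMIs, 605 and 906 in 2D and 384 and 357 in 0D. In the median cell Defa24 held 45.6% and 46.7% of member UMIs in 2D, against 47.8% and 46.9% in 0D, and Defa30 held 16.5% and 19.4% in 2D, against 18.4% and 18.9% in 0D. Defa21 was uneven: its median share was 1.96% and 0.838% in 2D, against 1.27% and 0.593% in 0D, while the top 5% of cells began at 15.3% and 11.6% in 2D, against 17.0% and 13.5% in 0D. Cells with more than 5% of their member UMIs from Defa21 were 32.9% and 14.4% in 2D, against 26.6% and 18.8% in 0D.

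**Figure D4:**
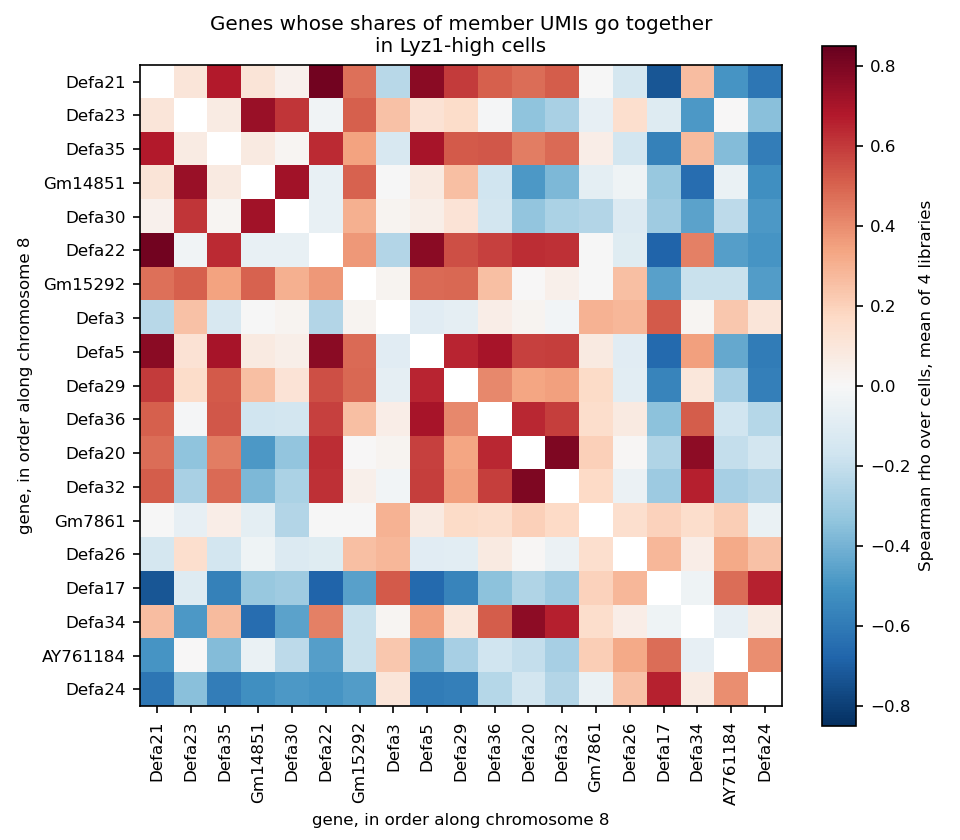
Spearman correlation across Lyz1-high cells between the shares of 19 members among a cell's member UMIs, in chromosome order, as the mean of the 4 libraries. Defa21, Defa22 and Defa5 form a positive set, with 0.82 between Defa21 and Defa22, and are negative against Defa17 and Defa24.

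Shares moved together in sets. Across cells, the mean over the 4 libraries of Spearman's correlation was 0.82 for Defa21 and Defa22, 0.76 for Defa21 and Defa5, 0.77 for Defa22 and Defa5, and 0.70 for Defa36 and Defa5. A further positive set held Defa20 with Defa32 (0.79) and with Defa34 (0.76). Another held Gm14851 with Defa23 (0.74) and with Defa30 (0.72), and Defa24 went with Defa17 (0.65). Against these, Defa21 was negative with Defa17 (−0.72) and with Defa24 (−0.61), and Gm14851 was negative with Defa34 (−0.65). Of the positive pairs named above, Defa21 and Defa22 have promoters that are the same letter for letter. Those of Defa20 and Defa32 have 98.68% identity, and the other pairs lack a promoter in the table. Likeness of promoters and correlation did not always go together. Defa23 and Defa30 had 0.61 with 74.32% promoter identity, while Defa20 and Defa21 had 0.48 with 97.67%. Whether promoters bear on the sets was not tested. The correlations describe shares within libraries that sum to 100% in each cell. Cells of a library share its depth and free RNA. Near-identical genes can also share reads. Among genes outside the cluster, Reg3g (0.49), Ang4 (0.40), Nupr1 (0.35) and Lyz1 (0.32) were positive with the summed share of Defa21 and Defa22, and Rnase1 (−0.58) and Reg4 (−0.37) were negative.

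Below the Lyz1 cut the members were present at low levels in each library. They held 0.906% and 1.15% of the UMIs of cells below the cut in 2D-1 and 2D-2, against 0.419% and 0.490% in 0D-1 and 0D-2. The mean was 1.03% ± 0.175 in 2D and 0.455% ± 0.0506 in 0D (SD, n = 2 each), a ratio of 2.27. Both 2D libraries lay above both 0D libraries, with an exact permutation p of 0.333, the smallest possible. The difference was 0.575 percentage points, 0.699 without 2D-1, and 1.27 where Paneth-like clusters stood in place of the Lyz1 cut. Beside this stands the members' share of all UMIs in the same libraries, which was 15.98% and 19.01% in 2D, against 8.90% and 8.84% in 0D. Whether free RNA from Paneth cells set the level below the cut was not tested.

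Enterocyte-like cells, absorptive cells that do not make alpha-defensins, give the background. Members held 0.466% and 0.501% of their UMIs in 2D, against 0.155% and 0.191% in 0D. By these sums the ratio of the group means was 2.80, and by the median cell it was 1.72. Enterocyte-like cells with at least 5% member UMIs numbered 10 and 16 in 2D, against 0 and 1 in 0D. The class was made of different clusters in the libraries: cluster 20 held 758 and 14 kept cells in 2D, against 22 and 10 in 0D, cluster 9 held 47 and 333 in 2D, against 748 and 633 in 0D, and cluster 21 held 12 and 67 in 2D, against 291 and 286 in 0D. All enterocyte-like cells had at least 1 member UMI in each library. After thinning to 1000 UMIs per cell, which left out at most 7 cells of a class in a library, Defa30 was seen in 95.6% and 95.9% of Lyz1-high cells in 2D, against 91.8% and 90.2% in 0D. It was also seen in 43.9% and 52.1% of enterocyte-like cells in 2D, against 23.7% and 33.8% in 0D, at median depths before thinning of 19268 and 11436 UMIs in 2D, against 12870 and 14629 in 0D. The rare Defa35 was seen, unthinned, in 65.1% and 49.5% of Lyz1-high cells in 2D, against 62.4% and 54.7% in 0D, and in 3.76% and 2.00% of enterocyte-like cells in 2D, against 1.39% and 1.27% in 0D. Over all cells below the cut, Defa35 stood at 1.12% and 1.34% of its level in Lyz1-high cells in 2D, against 0.393% and 0.433% in 0D. Defa30 stood at 1.07% and 1.04% in 2D, against 0.366% and 0.443% in 0D. What sets the shares of cells was not tested.

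Every member with UMIs below the cut was higher there in both 2D libraries. Defa24 had 5240 and 7466 CPM in 2D, against 2856 and 3279 in 0D. Defa30 had 1184 and 1260 in 2D, against 415 and 526 in 0D, and AY761184 had 573 and 819 in 2D, against 221 and 260.4 in 0D. Defa21 had 421 and 278 in 2D, against 109 and 111 in 0D, keeping the split between the 2D libraries that it had in Lyz1-high cells. Defa22 had 382 and 253 in 2D, against 104 and 125 in 0D, and Gm14851 had 280.1 and 316 in 2D, against 110.4 and 113 in 0D. Defa17 had 467 and 659.9 in 2D, against 209 and 273 in 0D. Among the other leading members, Defa29 had 118.6 and 104 in 2D, against 32.2 and 45.3 in 0D, and Gm7861 had 131 and 141 in 2D, against 35.4 and 52.1 in 0D. Defa5 had 49.5 and 34.2 in 2D, against 11.5 and 15.1 in 0D, and Defa3 had 50.8 and 56.2 in 2D, against 19.4 and 25.9 in 0D. Of the 12 leading members, Defa36 had the smallest ratio between groups, with 58.9 and 56.2 in 2D, against 32.0 and 36.2 in 0D. Defa25, Defa31 and Defa37 had 0 UMIs below the cut, which allows at most 0.0456 CPM in any library (3 UMIs, counting error only).

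The test across genes did not call these differences. In edgeR 0 of 22 members were called below the cut, against 0 of 15346 genes (0%), and 22 of the 22 had an unadjusted p under 0.05, against 2918 genes (19.0%). The lowest adjusted p of a member was 0.156. Both 2D libraries were higher for 22 of 22 members, against 31.5% of all genes. The median log2 change was 1.40 over the members and 0.00016 over all genes, with 1.01 ± 0.24 (SE) for Defa24 and 1.33 ± 0.15 for Defa30. DESeq2 called 19 of them higher, against 391 genes in that direction (2.55%). Without 2D-1 edgeR called 21 higher, against 12.3% of all genes, and without 2D-2 it called 19, against 7.28%. The granule list went the same way: 0 of 26 genes were called, and 22 of the 26 had a log2 change above 0, with a median of 0.67. Mptx2, a pentraxin of Paneth cells, had 1.32 ± 0.19 and Lyz1 had 0.89 ± 0.18. Of the regulators 28 were tested and 0 were called, those with the smallest p being Tcf7l2, the TCF factor of the gut, at 0.38 ± 0.08, and Spdef, a factor of goblet and Paneth cells, at 0.60 ± 0.17.

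The change below the cut differed from that in Lyz1-high cells for most members. The term for the difference, tested in edgeR over 8 sums with the library as a block, was called for 17 members, each with the smaller change in Lyz1-high cells, against 29 of 14445 genes in that direction (0.201%). The log2 difference ran from −1.66 ± 0.17 (SE) for Defa21 to −1.002 for Defa17, with adjusted p from 0.00238 to 0.0254. It was −1.64 for Defa34, −1.61 for Defa22, −1.33 for Defa30, −1.27 for Gm14851 and −1.25 for AY761184. In all 26 members passed the filter on the 8 sums, but Defa2, Defa31, Defa33 and Defa37 did not pass it below the cut and were not called, and Defa31 and Defa37 had 0 UMIs there. The 17 are thus among the 22 members with a tested level in both groups of cells. Defa24 was not among the 17, with −0.96 ± 0.18 and an adjusted p of 0.121. The calls depended on which cells entered: with doublets by a common score left out 0 members were called, at a median difference of −1.12 and a lowest adjusted p of 0.152, against 0% of all genes. With cells of at most 10% mitochondrial UMIs 4 were called, against 0.0487% of all genes lower, and with cells of at least 5000 UMIs 6, against 0.0562%. Without 0D-1 10 were called, against 0.115%.

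Below the cut the members also differed in their mix. Defa24 below the cut stood at 1.88% and 2.61% of its level in Lyz1-high cells in 2D, against 1.02% and 1.16% in 0D. For Defa30 these values were 1.07% and 1.04% in 2D, against 0.366% and 0.443% in 0D, and for Gm14851 0.736% and 0.784% in 2D, against 0.288% and 0.314% in 0D. Defa17, at 2.45% and 3.13% in 2D, against 1.30% and 1.35% in 0D, was above Defa24 in each library. Defa24 and Defa17 thus stood higher against their Paneth level than Defa30 and Gm14851 did, in each library.

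**Figure D5:**
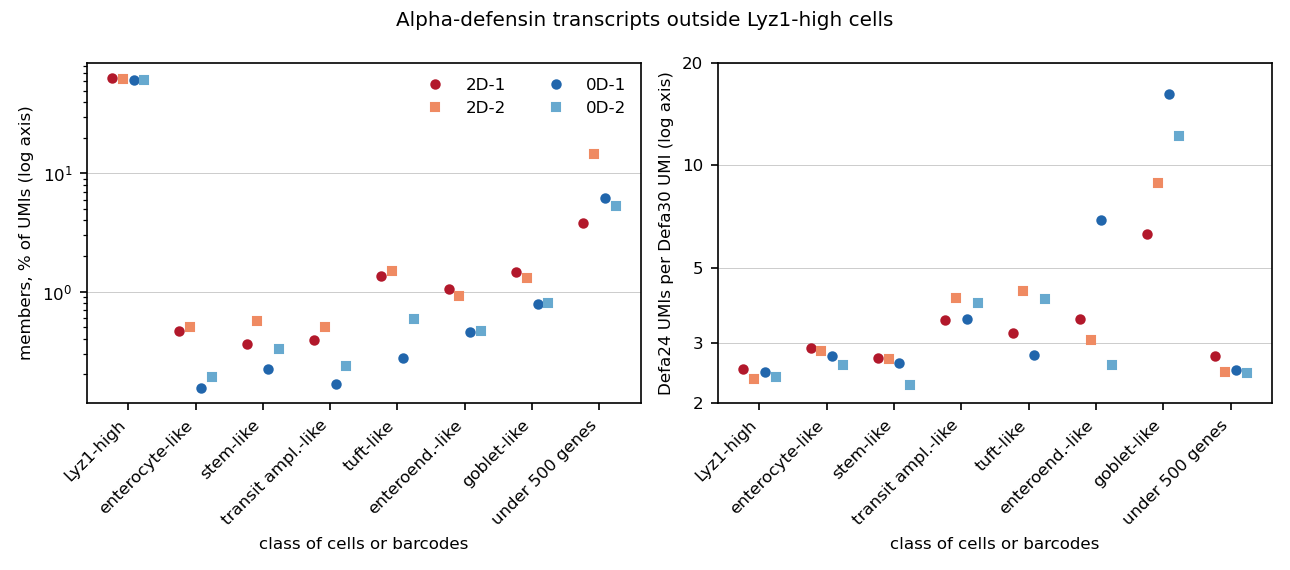
Share of UMIs held by the members (left, percent) and Defa24 UMIs per Defa30 UMI (right) in Lyz1-high cells, in 6 classes below the cut and in barcodes with under 500 genes, 1 point per library. The goblet-like class stands above the Lyz1-high cells in the right panel in each library, at 6.27 to 16.2 against 2.36 to 2.52.

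The ratio of Defa24 to Defa30, the 2 leading members, differed between classes. Summed over a class, it was highest in goblet-like cells below the cut, among classes with a value here. In Lyz1-high cells there were 2.52 and 2.36 Defa24 UMIs per Defa30 UMI in 2D, against 2.47 and 2.38 in 0D. Enterocyte-like cells had 2.91 and 2.85 in 2D, against 2.75 and 2.58 in 0D, and barcodes with under 500 genes, which were not kept as cells, had 2.75 and 2.47 in 2D, against 2.51 and 2.45 in 0D. Goblet-like cells, mucus-making cells of the same secretory lineage, had 6.27 and 8.90 in 2D, against 16.2 and 12.2 in 0D. On the log2 scale the ratio in goblet-like cells exceeded that in Lyz1-high cells by 2.07 ± 0.60 and that in enterocyte-like cells by 1.89 ± 0.64 (SD, n = 4 libraries), in 4 of 4 libraries. The exact sign-flip permutation p was 0.125 for each, the smallest that 4 libraries can give. This test was not planned, and goblet-like cells had the highest class value in these same libraries. The p-value therefore adds no support of its own. Transit amplifying-like cells had 3.499 and 4.06 in 2D, against 3.53 and 3.93 in 0D, and tuft-like cells 3.21 and 4.28 in 2D, against 2.76 and 4.04 in 0D. Enteroendocrine-like cells had 3.53 and 3.07 in 2D, against 6.89 and 2.58 in 0D, where 1 library lay in the range of goblet-like cells. That value of 0D-1 leaned on 2 cells with at least 5% member UMIs, which held 7719 Defa24 and 39 Defa30 UMIs. The 475 enteroendocrine-like cells of 0D-1 with under 0.5% member UMIs held 4298 and 1473, a ratio of 2.92. The few Paneth-like cells below the cut, 49 and 58 in 2D and 24 and 30 in 0D, had 3.72 and 5.57 in 2D, against 4.86 and 8.32 in 0D. Unnamed cells had 4.94 and 4.31 in 2D, against 6.61 and 5.91 in 0D. Each had 1 0D library in the range of goblet-like cells. Clusters differed within a class. Transit amplifying-like cluster 6 had 5.44 and 6.41 in 2D, against 7.33 and 9.14 in 0D, while clusters 8 and 12 had 2.56 to 2.84. Paneth-like cluster 25 below the cut had 28.1 and 6.44 in 2D and 16.6 in 0D-2, over 39, 48 and 22 cells. Goblet-like clusters ranged from 3.93 (cluster 3 in 2D-2) to 24.0 (cluster 5 in 2D-1).

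Goblet-like cells below the cut also held more member UMIs than enterocyte-like ones. Members made up 1.45% and 1.31% of their UMIs in 2D, against 0.789% and 0.797% in 0D, over 2686 and 3265 cells in 2D and 2289 and 2368 in 0D. The medians over cells were 0.846% and 0.618% for goblet-like cells in 2D, against 0.238% and 0.286% in 0D, and 0.226% and 0.2998% for enterocyte-like cells in 2D, against 0.130% and 0.176% in 0D. The ratio of Defa24 to Defa30 was also raised in goblet-like cells with the least lysozyme. Where Lyz1 was under 0.02%, it was 6.05 and 7.58 in 2D, against 8.95 and 6.04 in 0D, and where Lyz1 was 0.5% to 1%, 6.13 and 12.1 in 2D, against 22.1 and 45.6 in 0D. Goblet-like cells with at least 5% member UMIs, 247 and 194 in 2D and 63 and 74 in 0D, had 9.43 and 25.8 in 2D, against 61.6 and 90.9 in 0D. Those with under 0.5% member UMIs, which were 29.97% and 42.5% of the class in 2D, against 71.7% and 67.7% in 0D, had 3.28 and 3.18 in 2D, against 3.71 and 3.32 in 0D, closer to enterocyte-like cells. The split by member UMIs uses the members themselves and is a description. The largest cluster of goblet-like cells differed between libraries. In 2D-1 clusters 3 and 1 held 51.9% and 26.3%. The largest was cluster 2 with 32.0% in 2D-2, against cluster 4 with 27.3% and 28.5% in the 0D libraries. Clusters 0, 2, 4 and 5 each held 16.7% to 32.0% in 2D-2 and the 0D libraries, against 0.856% to 6.70% in 2D-1. Whether doublets of goblet and Paneth cells have a part in these values was not tested class by class.

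The place along the intestine bears on which alpha-defensins are seen, and the labels name only the small intestine. Of 7 genes of the proximal small intestine 7 were tested below the cut, 0 were called and 0 had a log2 change above 0, with a median of −0.64. Adh6a, an alcohol dehydrogenase, had −1.06 ± 0.08 (SE) and Lct, the lactase of the brush border, −1.95 ± 0.20. Of 7 genes of the distal small intestine 0 were called there and 5 were above 0, with 1.21 ± 0.54 for Slc10a2, the ileal bile acid transporter, and −0.43 ± 0.30 for Slc51a, a subunit of the basal bile acid exporter. In enterocyte-like cells Fabp6, the bile acid binding protein of the ileum, had 1398 and 601 CPM in 2D, against 316 and 832 in 0D, and Adh6a had 184 and 344 in 2D, against 474 and 502 in 0D. Fabp6 overlapped between the groups and Adh6a did not, over the unequal clusters of enterocyte-like cells given above. In Lyz1-high cells 6 genes of each list were tested and 0 were called. The proximal ones with the smallest p were Fabp1, a fatty acid binding protein, at 0.72 ± 0.57, and Gata4, a transcription factor, at −0.14 ± 0.18, and the distal ones were Muc3, a membrane mucin, at 1.63 ± 0.74, and Osr2, a transcription factor, at −0.35 ± 0.23. The part of the sampled region in the members' values was not tested.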

How the data were processed

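Raw UMI counts per gene and cell barcode were used as deposited by the authors. They came from 10x Genomics 3′ libraries (kit version 2, per the labels' protocols) of crypts released with 10 mM EDTA and passed through a 70 µm strainer. The counting program was Cell Ranger 2.1.1 with mm10 per the submitters' processing notes and cellranger 7.0.0 per the file headers. Intron counting, which could change the counts, and the gene annotation were not given in the sources used here. The smallest deposited barcode had 500 UMIs.

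Kept cells had at least 500 genes and at most 20% mitochondrial UMIs. UMIs were summed per library over Lyz1-high cells (at least 1% Lyz1, counted without the members) and over the other cells. The sums were tested with edgeR 4.0.16 in R 4.3.3 (filterByExpr, TMM, quasi-likelihood, Benjamini-Hochberg, threshold 0.05), with DESeq2 1.42.0 as an alternative. Library shares were tested with exact permutation tests. The fits were also run on simulated counts, with changes larger than those of the members in Lyz1-high cells. That run does not show how well changes as small as theirs are found. Cells were clustered with scanpy 1.11.5 (Leiden, resolution 1, 2000 variable genes, members left out) and clusters were named from marker lists. Class names are therefore rebuilt ones and may differ from the authors'. Doublets were scored with Scrublet and kept. By its automatic threshold 521 and 0 cells in 2D, against 624 and 367 in 0D, were doublets, so the caller failed in 2D-2. Leaving out cells above 1 common score of 0.222 was an alternative.

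Values are named in every library for the 12 most abundant members and for members that passed a test, and otherwise by range. Of other lists, the 2 genes with the smallest p are named where none passed. The members and lists were chosen with earlier results of these data known.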

Additional observations from a re-analysis of the deposited data

Results flagged for a closer look

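By edgeR's test of the difference itself, the change between 2D and 0D differed between Lyz1-high cells and cells below the cut for 17 members. In the same direction 29 of 14445 genes were called (0.201%). With doublets by a common score left out, 0 members were called, against 0% of all genes. As the log2 change in Lyz1-high cells minus that below the cut, the values were −1.66 for Defa21, −1.64 for Defa34, −1.61 for Defa22, −1.51 for Defa5, −1.48 for Defa35 and −1.44 for Defa20. They were −1.33 for Defa30, −1.32 for Defa23, −1.30 for Defa36, −1.28 for Defa29, −1.27 for Gm14851, −1.27 for Gm7861 and −1.25 for AY761184. They were −1.18 for Gm15292, −1.07 for Defa3, −1.05 for Defa26 and −1.002 for Defa17. Each was smaller in Lyz1-high cells.

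Barcodes that were not kept also held alpha-defensin UMIs, in 2D only in part above the level of the 0D libraries. In barcodes with over 20% mitochondrial UMIs the members held 1.77% of UMIs in 2D-1 and 2.36% in 2D-2, against 0.583% and 0.954% in 0D. In barcodes with under 500 genes they held 14.5% in 2D-2, against 3.79% in 2D-1, 6.23% in 0D-1 and 5.30% in 0D-2, so 2D-1 lay below both 0D libraries there.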

How the results depend on the processing

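The members' share in Lyz1-high cells turned to −1.14 points, 2D minus 0D, with each cell thinned to 1000 UMIs, an alternative chosen after seeing the data. In Lyz1-high cells DESeq2 called 1 member, against 0 in edgeR, and leaving out a library gave 0 to 3. Below the cut DESeq2 called 19, against 4.14% of all genes in either direction. Paneth-like clusters in place of the cut gave 9, against 0.0912% of all genes in either direction. Leaving out a library gave 0 to 21, and the shares of all genes higher without 2D-1 and without 2D-2 are given above. Since the share of all genes called differed between these fits, their counts of members cannot be compared directly. Of the differences between cell classes, called for 17 members, 4 were left with at most 10% mitochondrial UMIs, 0 without doublets and 6 with at least 5000 UMIs. The shares of all genes for these are given above. Leaving out a library gave median differences over the members of −1.09 to −1.47. The replicate numbers could not be shown to pair the libraries (2 pairs, correlation of deviations 0.151 in Lyz1-high cells and 0.0620 below the cut). With the replicate block 0 members were called in Lyz1-high cells, against 160 of 11336 genes (1.41%). Below the cut that block gave 0 members, against 0 of 15346 genes. Some single log2 changes in Lyz1-high cells turned sign. With thinning they were −0.16 for Defa24, −0.22 for Defa30, −0.031 for AY761184, −0.20 for Gm14851, −0.018 for Defa29, −0.035 for Defa5, −0.084 for Defa3, −0.026 for Defa35 and −0.014 for Gm15292. With a Lyz1 cut of 0.5% they were −0.0022 for Defa24 and −0.0067 for Defa30, and with a cut of 2% −0.022 and −0.029. The block gave −0.0023 for Defa30. Defa21 turned to 0.0026 without doublets and 0.0010 with Paneth-like clusters. Leaving out a library gave −0.045 to 0.055 for Defa24, −0.10 to 0.093 for Defa30, −0.52 to 0.33 for Defa21, −0.68 to 0.21 for Defa22, −0.033 to 0.34 for Defa17, −0.24 to 0.38 for Defa5, −0.028 to 0.28 for Defa3, −0.24 to 0.69 for Defa34, −0.33 to 0.57 for Defa35 and −0.31 to 0.43 for Defa20. Causes were not tested. Depth limited the rarest members: Defa31 and Defa37, with 3 to 16 UMIs a library in Lyz1-high cells, and Defa25, with 0, did not pass the filter on low counts in the fit of those cells.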
